A study of Mus musculus with 6 samples.

Results

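The Cd209 genes of the mouse encode a family of C-type lectins. Their expression was described here in macrophages and other cells from preparations of the proximal pulmonary artery (PA), which included surrounding tissue. The family was taken as the 7 genes Cd209a to Cd209g by symbol, out of 53647 genes in the count tables. They were chosen with results in view, because Cd209d counts had differed between old and young perivascular macrophages, so every old against young value of these genes in macrophages is a description and carries no test. Single cell RNA sequencing libraries of 6 C57BL/6J mice were used, 2 young mice of 3 months (a male and a female) and 4 old mice of 20, 24, 27 and 28 months. Mice of 20, 24 and 27 months were males and the mouse of 28 months was a female. Sex is in the labels of 3 libraries and otherwise from the methods, which also say that some old mice came from an aging colony and were kept on locally, while young mice were bred locally. No mouse carried a transgene or received a treatment. Droplets with at least 500 UMIs (unique molecular identifiers, each marking 1 captured RNA molecule), at least 300 genes and at most 20% mitochondrial UMIs were kept, which left 15622 cells. Of these, 1597 were macrophages, defined as cells with at least 2 UMIs of C1qa, C1qb, C1qc and Mrc1 together.

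CD209 proteins sit in the plasma membrane with a calcium-dependent carbohydrate recognition domain outside the cell, which binds mannose-rich and fucosylated glycans of microbes and of host glycoproteins. Humans carry a single DC-SIGN gene and a close relative, whereas the mouse has an expanded cluster. Cd209a encodes the mouse protein usually called DC-SIGN and is known from dendritic cells and monocyte-derived cells. Cd209b encodes SIGNR1, a receptor for bacterial polysaccharides on macrophages of the splenic marginal zone and of lymph nodes, and Cd209d encodes SIGNR3, which binds mycobacteria. Cd209c and Cd209e encode SIGNR2 and SIGNR4, and Cd209f and Cd209g encode less studied members. In the wall of large arteries, resident macrophages that carry LYVE1, a hyaluronan receptor, lie in the adventitia, and those with high MHC class II present antigen.

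All 7 genes lie within 394 kb of chromosome 8 (RefSeq, GRCm38.p6, positions 3743395 to 4137707), 6 on the minus strand and Cd209g on the plus strand. The windows from 250 bases before to 50 bases after the RefSeq start sites are shown for the 4 members with the most UMIs in macrophages, because a single pair among them is nearly the same sequence. The Cd209f window (chr8:4105715-4106014, minus strand) and the Cd209g window (chr8:4134486-4134785, plus strand) share an unbroken run of 180 bases, given in capitals, and 242 of 260 aligned positions (93.1%) were identical. In the Cd209d window (chr8:3878450-3878749, minus strand) and the Cd209b window (chr8:3926792-3927091, minus strand) the capitals mark the longest run that both hold, 12 bases, at the same distance from the start site.
Cd209f: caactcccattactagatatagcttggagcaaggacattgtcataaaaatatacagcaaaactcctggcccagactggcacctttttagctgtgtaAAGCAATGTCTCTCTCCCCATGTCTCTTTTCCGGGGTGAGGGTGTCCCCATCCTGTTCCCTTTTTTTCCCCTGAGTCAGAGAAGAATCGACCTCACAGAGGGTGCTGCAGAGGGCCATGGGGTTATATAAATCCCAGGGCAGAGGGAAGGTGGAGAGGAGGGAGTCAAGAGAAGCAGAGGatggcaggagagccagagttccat
Cd209g: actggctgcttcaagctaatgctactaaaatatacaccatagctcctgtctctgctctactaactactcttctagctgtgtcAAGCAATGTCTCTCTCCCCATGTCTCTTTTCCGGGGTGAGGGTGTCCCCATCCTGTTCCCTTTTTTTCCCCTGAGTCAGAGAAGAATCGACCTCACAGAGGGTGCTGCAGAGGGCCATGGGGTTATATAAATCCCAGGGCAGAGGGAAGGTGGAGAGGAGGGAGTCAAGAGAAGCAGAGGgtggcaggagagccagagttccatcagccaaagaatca
Cd209d: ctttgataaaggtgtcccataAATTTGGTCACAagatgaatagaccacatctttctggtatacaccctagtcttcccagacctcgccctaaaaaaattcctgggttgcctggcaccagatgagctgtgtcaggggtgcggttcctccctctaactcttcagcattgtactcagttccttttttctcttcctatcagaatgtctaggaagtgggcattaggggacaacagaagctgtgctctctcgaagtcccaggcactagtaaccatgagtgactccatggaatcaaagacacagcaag
Cd209b: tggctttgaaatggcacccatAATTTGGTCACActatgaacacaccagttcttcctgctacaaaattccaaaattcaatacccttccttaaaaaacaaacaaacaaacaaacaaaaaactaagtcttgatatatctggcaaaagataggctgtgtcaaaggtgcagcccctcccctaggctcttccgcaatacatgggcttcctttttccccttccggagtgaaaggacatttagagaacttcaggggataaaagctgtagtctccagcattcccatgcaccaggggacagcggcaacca
No other pair of members shared a run above 17 bases. The letters TATAAA stood in the windows of 3 members (Cd209a, Cd209f and Cd209g) and in 14.2% of all 27025 promoter windows, and the letters AGGAAG, a short core bound by ETS factors, stood in 4 members (Cd209a, Cd209b, Cd209d and Cd209e) and in 35.1% of all windows, either strand counted. The MAF core TGCTGAC (4.58% of all windows) and the longer PU.1 core AGAGGAAGT (1.05%) stood in none of the 7 windows. Reads of the members could be told apart near the transcript ends that this 3′ assay reads, since none of the 61-base words in the last 500 bases of their coding transcripts occurred in another member.

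Libraries differed in depth. Macrophages numbered 250 in the young male and 47 in the young female, and 97, 183, 308 and 712 in the libraries of 20, 24, 27 and 28 months. The median macrophage held 930 UMIs in the young male and 811 in the young female, against 1243 to 6628 in the old libraries. The 8 macrophage markers that the gate did not use (Cd68, Csf1r, Adgre1 and others) were all detected in 5 libraries and 7 of 8 in the young female, with each detected marker higher in macrophages than in other cells. Markers of alveolar macrophages summed to 1250 and 1244 CPM (counts per 1000000 UMIs of the cells in question) in macrophages of the young male and female. In old macrophages they summed to 88.6, 1309, 236 and 256 CPM at 20, 24, 27 and 28 months. The 24-month library thus lay near the young ones, and the part of this list in the old against young values was not tested. Markers of fibroblasts and blood endothelium were higher in every old library than in the young, with 100 to 1538 CPM against 20.7 to 63.8 CPM for fibroblasts, 200 to 384 CPM against 41.5 to 109 CPM for blood endothelium. Smooth muscle markers had 7.31 to 4387 CPM against 0 to 7.51 CPM, with ranges that overlapped. Macrophages with at least 2 UMIs of another type's markers made up 2.13% and 4% in the young and from 7.22% to 44.2% in the old libraries, and the part of these cells in the old against young values was not tested. The young male, the young female and the 24-month library shared from 131 to 215 cell barcodes with each other, against at most 4 for any other pair. Among macrophages, 2 cells of the young male, 9 of the young female and 11 of the 24-month library had such a barcode. The 20-month library, from a male by the study, held 3113 UMIs of Xist beside 8488 of Ddx3y, 25 of Eif2s3y, 17 of Kdm5d and 77 of Uty, so its sex is in doubt. The young male library held 437 UMIs of Xist beside 556 of Ddx3y, and the young female library held 1300 of Xist beside 210 of Ddx3y, 89 of Eif2s3y, 52 of Kdm5d and 171 of Uty, whereas the 28-month female held 21952 of Xist and 3, 0, 8 and 0 of these Y-linked genes.

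The share of Cd209 UMIs that lay in macrophages was higher in the 3 libraries of 20, 27 and 28 months than in the 24-month and young libraries. Macrophages held 235 of 263 UMIs of the 7 genes in kept cells at 20 months (89.4%), 3432 of 3529 at 27 months (97.3%) and 8741 of 9025 at 28 months (96.9%). They held 66 of 166 at 24 months (39.8%), 78 of 133 in the young male (58.6%) and 9 of 15 in the young female. Over all libraries the share was 12561 of 13131 (95.7%), a value set by the libraries of 27 and 28 months. By gene, the pooled share was 98.3% for Cd209b, 97.7% for Cd209f, 96.7% for Cd209d, 96.1% for Cd209g, 95.4% for Cd209e and 86.2% for Cd209c. Cd209f was the most even, with 95.7% to 100% in macrophages in each of the 6 libraries. Cd209a was the least restricted. Its share in macrophages was 14% in the young male, 0% of 2 UMIs in the young female, 29.6% at 20 months, 23.1% at 24 months, 89.4% at 27 months and 92.2% at 28 months (81.0% pooled), and most of its other UMIs were in myeloid cells without C1q. For Cd209d the share was 12.5% of 8 UMIs in the young male and 54.5% of 11 at 24 months, against 97.0% to 97.6% at 20, 27 and 28 months. In the 4 old libraries pooled, the 6 genes other than Cd209a stood between 0 and 12.1 CPM in every class outside macrophages, where Cd209f had 2.51 CPM in fibroblasts, 1.39 CPM in smooth muscle cells and 5.56 CPM in blood endothelial cells. Barcodes under 100 UMIs, which hold mostly free RNA, had 71.4 CPM of Cd209f in the 27-month library and 149 CPM in the 28-month library. In the same libraries all cells other than macrophages had 0.927 and 5.66 CPM, and macrophages 705 and 906 CPM.

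A comparison of macrophages with all other kept cells, paired within the 6 libraries, used edgeR's quasi-likelihood test on summed counts. No Cd209 gene passed the filter of a count in over 5% of the cells compared in at least 3 libraries, because macrophages were few. Without that filter 5.77% of 24562 genes were higher in macrophages at an adjusted p under 0.05. Among the 6 members other than Cd209d, which had been chosen on its macrophage counts, 4 were higher. Cd209f rose by 8.53 on the log2 scale (SE 0.48, adjusted p = 2.87e-09, edgeR), Cd209b by 7.78 (SE 0.61), Cd209g by 7.60 (SE 0.45) and Cd209e by 5.88 (SE 0.85). The Cd209e value rested mostly on the 28-month library, with 73 of its 83 macrophage UMIs. Macrophages of the 20-month and both young libraries held 0. Cd209c at 4.12 (SE 1.37, adjusted p = 0.079, edgeR) and Cd209a at 3.38 (SE 1.18, adjusted p = 0.105, edgeR) did not pass. Cd209d stood 6.41 higher (SE 1.34) on the same scale, as a description.

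**Figure D1:**
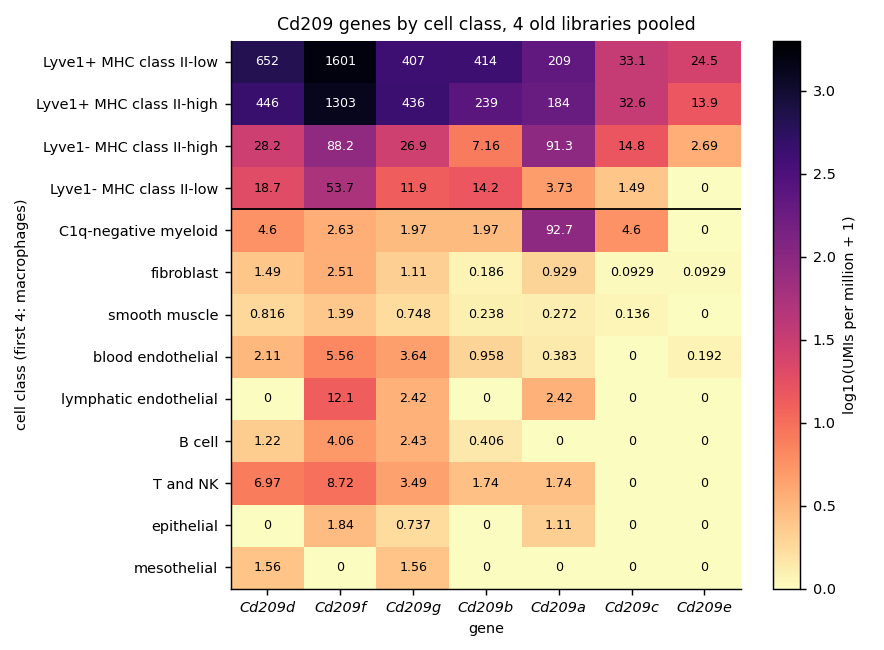
Expression of the 7 Cd209 genes by cell class in the 4 old libraries pooled. Each cell gives the CPM over all UMIs of the class and its colour the log10 of that value plus 1, so the 28-month library, with the most cells, weighs most. In these pooled values the 2 Lyve1+ macrophage rows hold the highest value of every gene, and Cd209a alone reaches 92.7 CPM in C1q-negative myeloid cells. By library, Cd209a was higher in C1q-negative than in Lyve1+ cells at 20, 24 and 27 months (308, 286 and 123 against 60.5, 39.4 and 95.3 CPM). It was lower at 28 months alone (40.4 against 275 CPM).

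Cd209f had the most macrophage UMIs of the family in 5 of 6 libraries, the 24-month library having more of Cd209a, and Cd209d was the member picked for its old against young difference. Cd209d had 1 UMI in young male macrophages (3.75 CPM, exact 95% Poisson interval 0.095 to 20.9) and 0 in the young female (0 to 76.5 CPM). In old macrophages it had 37 UMIs (143 CPM), 6 (21.9 CPM), 641 (295 CPM) and 1579 (334 CPM) at 20, 24, 27 and 28 months. Every old library was above both young ones, and the lowest old value was that of the 24-month library, whose counting interval (8.05 to 47.8 CPM) overlapped both young intervals. The old mean was 198 ± 144 CPM (SD, n = 4) against 3.75 and 0 CPM. Cd209d was picked for this difference, so no fold is read from it. All intervals here cover counting error only.

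At the old levels the 48248 macrophage UMIs of the young female would have held 6.88, 1.06, 14.2 and 16.1 UMIs of Cd209d at 20, 24, 27 and 28 months. Its upper bound of 76.5 CPM lay below the old values of 20, 27 and 28 months, and it could not be set apart from the 24-month value at this depth. The 266364 UMIs of the young male would have held between 5.85 and 89.0. Cd209d was not absent from the young libraries. In the young male it had 6 UMIs in 4 of 122 C1q-negative myeloid cells (46.3 CPM, 17.0 to 101), above its own macrophages, and 15 UMIs in barcodes under 100 UMIs, and the 24-month library had 4 UMIs in 2 C1q-negative cells (18.5 CPM). In the libraries of 20, 27 and 28 months these myeloid cells held from 0 to 5.86 CPM of Cd209d.

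Cd209f was detected in macrophages of every library. Its level was 139 and 145 CPM in the young male and female, and 451, 80.5, 705 and 906 CPM at 20, 24, 27 and 28 months. The 24-month library lay below both young libraries, so the groups overlapped, and the old mean was 536 ± 356 CPM (SD, n = 4). Cd209g stood at 101 and 0 CPM in the young, and at 212, 21.9, 282 and 216 CPM in the old. Cd209b had 22.5 and 41.5 CPM in the young, and 53.9, 21.9, 192 and 192 CPM in the old. For both genes the 24-month library again fell within or below the young range.

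Cd209a, the dendritic cell member, stood at 26.3 and 0 CPM in young macrophages and at 30.8, 87.8, 89.8 and 158 CPM in the old ones. Its groups did not overlap, but the 20-month and young male intervals did (13.3 to 60.7 and 10.6 to 54.1 CPM). Cd209c was at 0 in both young libraries and at 15.4, 0, 12.9 and 27.5 CPM in the old. Cd209e was the rarest, with 0 UMIs in the young libraries and 0, 2, 8 and 73 UMIs in the old (up to 15.4 CPM). A count of 3, taken as the limit that a count of 0 allows, corresponded to 11.3 CPM in the young male and 62.2 CPM in the young female, so the young female could not be set apart from any old library for these genes. In the young male the upper bound of 13.8 CPM for both genes lay below the 28-month interval of Cd209c (23.0 to 32.7 CPM) and overlapped that of Cd209e (12.1 to 19.4 CPM) and the intervals of the other old libraries. Against 3 UMIs, the ratio of the pooled old to the pooled young level was 2.29 for Cd209c and 1.17 for Cd209e. The 28-month library held 130 of the 162 macrophage UMIs of Cd209c and 73 of the 83 of Cd209e. For each gene an old library held 0 UMIs. In the young male the limit of 3 UMIs (11.3 CPM) also lay below the exact upper bound (13.8 CPM). No smallest difference with age is therefore read from these ratios.

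Of the 7 members, 5 passed the filter in macrophages, and 2 of these (Cd209a and Cd209d) had every old library above both young ones, as 11.5% of the 6465 genes tested did. Both passed the filter through old libraries alone. In the young male and female, 1.2% and 0% of macrophages had a UMI of Cd209a, and 0.4% and 0% one of Cd209d. Cd209d was also picked for this contrast, so nothing is read from the 2 genes beside that share. The same old against young fit called 0 genes at an adjusted p under 0.05 with edgeR (0% of those tested), 404 at an unadjusted p under 0.05 and 9 with DESeq2. The 3′ UMI counts record molecules and were not divided by transcript length. On this scale the old means ran in the order Cd209f, Cd209d, Cd209g, Cd209b, Cd209a, Cd209c and Cd209e (536, 198, 183, 115, 91.7, 14.0 and 6.61 CPM). Neighbours in that order had means closer than the larger of their SDs between old libraries, apart from Cd209a and Cd209c, which lay further apart than either SD (52.1 and 11.3 CPM).

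**Figure D2:**
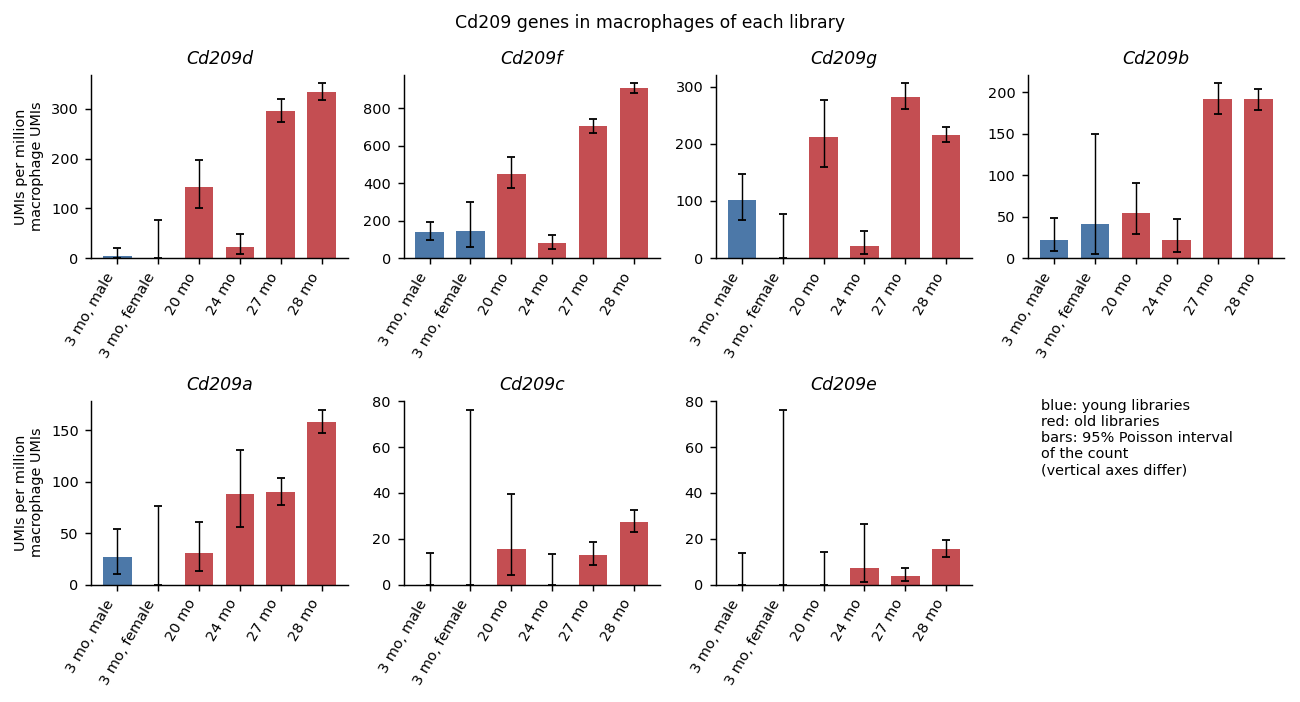
CPM over macrophage UMIs for each Cd209 gene in each library, young in blue and old in red, with exact 95% Poisson intervals of the count. The 24-month library is the lowest old library for Cd209d, Cd209f, Cd209g and Cd209b, and the young female has wide intervals because it held 47 macrophages.

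The makeup of the family in macrophages is given as a description. The shares of Cd209f and Cd209g overlapped between young and old libraries, and that of Cd209d, the gene picked for its difference, did not. Cd209f took 47.4% and 77.8% of the Cd209 UMIs in the young male and female, and between 33.3% and 49.8% in the old libraries. Cd209d took 1.28% and 0% in the young, from 78 and 9 UMIs in all, and 15.7%, 9.09%, 18.7% and 18.1% at 20, 24, 27 and 28 months. Cd209g took 34.6% in the young male, 0% in the young female and from 9.09% to 23.4% in the old libraries.

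The next comparison asked which macrophages hold these transcripts. Macrophages with at least 1 Lyve1 UMI were called Lyve1+, and they numbered 28, 15, 224 and 345 in the old libraries (28.9%, 8.20%, 72.7% and 48.5% of macrophages), 61 in the young male (24.4%) and 3 in the young female. Cd209d had been chosen on its counts in old perivascular macrophages, for which LYVE1 is a known marker, so its values by Lyve1 state are a description with no p. The other members were tested, on the 4 old libraries with the library as a block. A total of 941 of 6205 genes differed (15.2%), of which 421 were higher in Lyve1+ cells (6.78%) and 520 lower (8.38%). Of the 6 members other than Cd209d 4 passed the filter, which counts cells of both states together, and 3 of them were higher. Cd209b passed it through its Lyve1+ cells alone, with a UMI in 0%, 1.79%, 1.19% and 3.54% of Lyve1- macrophages at 20, 24, 27 and 28 months. Its call is therefore read beside the fit without that filter (5.33, SE 0.46, adjusted p = 5.08e-28, edgeR).

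Cd209b, the gene for SIGNR1, had 141, 118, 279 and 390 CPM in Lyve1+ macrophages of the libraries of 20, 24, 27 and 28 months, and 0, 12.1, 1.47 and 12.5 CPM in Lyve1- macrophages. The ranges did not overlap, but the 24-month values rested on 3 UMIs in each state, with intervals that did (24.4 to 346 and 2.49 to 35.3 CPM). The fitted difference was 5.19 on the log2 scale (SE 0.42, adjusted p = 8.79e-09, edgeR), the second largest rise of all genes called after Lyve1 itself, which defines the split. Cd209d had 343, 39.4, 423 and 673 CPM in Lyve1+ cells and 18.7, 20.2, 16.2 and 27.8 CPM in Lyve1- cells. The fitted difference was 4.26 on the log2 scale (SE 0.40), and the 24-month value in Lyve1+ cells was a single UMI in 15 cells.

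Cd209f had 988, 355, 1021 and 1808 CPM in Lyve1+ cells against 119, 52.4, 14.7 and 91.4 CPM in Lyve1- cells. Each Lyve1+ value lay above every Lyve1- value, with a difference of 4.05 (SE 0.51, adjusted p = 0.000129, edgeR). Cd209g had 484, 78.9, 404 and 431 CPM against 43.7, 16.1, 16.2 and 21.7 CPM, a difference of 4.04 (SE 0.35, adjusted p = 1.62e-08, edgeR). Within libraries the ratio of the states ran from 6.77 to 69.5 for Cd209f and from 4.89 to 25 for Cd209g, the 2 genes whose start site windows share the 180-base run. The lowest Cd209g ratio, at 24 months, came from 2 UMIs in Lyve1+ cells against 4 in Lyve1- cells. Their intervals overlapped (9.55 to 285 and 4.39 to 41.3 CPM).

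Cd209a was not called. It had 60.5, 39.4, 95.3 and 275 CPM in Lyve1+ cells and 12.5, 92.7, 77.9 and 52.7 CPM in Lyve1- cells, so the ranges overlapped and the 24-month library went the other way. The difference of 1.21 (SE 0.49) did not pass (adjusted p = 0.144, edgeR). It passed without the 24-month library (1.48, adjusted p = 0.0372, edgeR), when Lyve1+ meant at least 2 Lyve1 UMIs (1.55, adjusted p = 0.0237, edgeR) and without the gene filter (1.25, adjusted p = 0.00625, edgeR). Cd209c and Cd209e could be tested only without the filter, where 4.33% of 15144 genes were higher. Cd209e was then higher by 3.86 (SE 0.71, adjusted p = 2.22e-06, edgeR) and Cd209c by 1.56 (SE 0.46, adjusted p = 0.00664, edgeR), but both rested on the 28-month library, which held 68 Cd209e and 106 Cd209c UMIs in Lyve1+ cells where the other old libraries held 0 to 8 and 0 to 20. Without it neither passed, with -0.086 for Cd209c (adjusted p = 0.999, edgeR) and 3.05 for Cd209e (adjusted p = 0.55, edgeR). Without the 27-month library Cd209c did not pass either (1.89, adjusted p = 0.178, edgeR).

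Cd209b, Cd209f and Cd209g kept their calls in every setting in which they could be tested. With macrophages that carried at least 2 UMIs of another cell type's markers left out (7.22% to 44.2% of old macrophages), the differences were 4.25 for Cd209b, 3.50 for Cd209d, 3.46 for Cd209f and 3.39 for Cd209g. With every cell thinned to 500 UMIs, Cd209f (3.29) and Cd209g (3.14) remained testable and passed. Leaving out the 20-, 27- or 28-month library left no member past the gene filter, so these fits were run without it, and Cd209b, Cd209f and Cd209g passed in each. Lyve1 is also a gene of lymphatic endothelium, whose 5 markers summed to between 10.2 and 294 CPM in Lyve1+ cells and to between 12.7 and 21.8 CPM in Lyve1- cells. Lymphatic endothelial cells of the old libraries themselves held 0 CPM of Cd209d and Cd209b and 12.1 CPM of Cd209f. Alveolar macrophage markers summed to between 30.6 and 279 CPM in Lyve1+ cells and to between 127 and 1400 CPM in Lyve1- cells, and the part of both lists in the result was not tested.

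**Figure D3:**
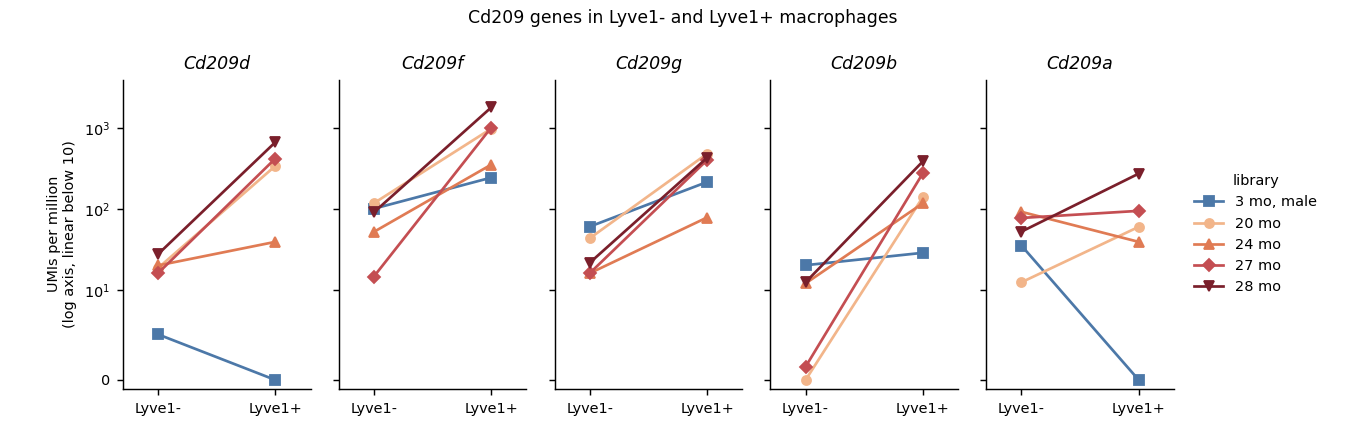
CPM in Lyve1- and Lyve1+ macrophages for the 5 most abundant Cd209 genes, with 1 line per library (log axis, linear below 10). The 4 old libraries rise from Lyve1- to Lyve1+ for Cd209d, Cd209f, Cd209g and Cd209b, whereas Cd209a falls in the 24-month library and in the young male, where Cd209d has no UMI in Lyve1+ cells.

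Young Lyve1+ macrophages could be examined in the young male alone. They held 0 UMIs of Cd209d among 69244, where the levels of the old libraries would have given 23.7, 2.73, 29.3 and 46.6 UMIs at 20, 24, 27 and 28 months. The exact upper bound of that count of 0 was 53.3 CPM, and pooled old Lyve1+ cells held 564 CPM. The 24-month level (39.4 CPM) lay below this bound. Cd209d was picked for its old against young difference, so no smallest fold is read here. Cd209f stood at 246 CPM in these young cells (17 UMIs), below the 4 old values. Cd209g stood at 217 CPM (15 UMIs), within the old range. Cd209b had 2 UMIs (28.9 CPM) and Cd209a had none. Within the young male, Cd209f was 2.42 times and Cd209g 3.56 times as high in Lyve1+ as in Lyve1- macrophages, as a single library with no test.

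Thinning every cell to 500 UMIs put the detection of the Cd209 genes on 1 depth. The Lyve1 states were still those set at full depth, which differed between libraries. Cd209f was then found in 32.1%, 6.67%, 34.4% and 53.0% of Lyve1+ macrophages at 20, 24, 27 and 28 months and in 6.56% (4 of 61) in the young male, against 1.19% to 5.72% of old Lyve1- macrophages. Cd209d was found in 10.7%, 6.67%, 19.6% and 21.7% of old Lyve1+ macrophages and in 0 of 61 in the young male. A count of 0 allows up to 4.92% of cells with a UMI at this depth, which limits detection and not the share of cells that express the gene. Unthinned, Cd209d had a UMI in 15.5%, 2.19%, 46.4% and 35.4% of all old macrophages, and in 0.4% and 0% of the young.

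MHC class II state separated the members less. Macrophages with at least 0.2% of their UMIs from H2-Aa, H2-Ab1 and H2-Eb1, the chains of the MHC class II proteins, were called MHC class II-high, and 349 of 6205 genes differed between the states (5.62%) in the old libraries, 2.84% higher and 2.79% lower in MHC class II-high cells. None of the 5 members tested passed with edgeR or DESeq2, and 1 (Cd209f) had an unadjusted p under 0.05 with edgeR. The differences were -0.92 (SE 0.43) for Cd209b, -0.81 (SE 0.29) for Cd209f, -0.63 (SE 0.45) for Cd209d, -0.49 (SE 0.53) for Cd209g and 0.56 (SE 0.55) for Cd209a, with adjusted p from 0.157 to 0.754 (edgeR). Cd209f passed as lower in MHC class II-high cells in 3 of 16 settings (lowest adjusted p = 0.000244, edgeR). Among these were the fit without the 24-month library (adjusted p = 0.0307, edgeR) and that with a filter of 1000 UMIs and 500 genes (adjusted p = 0.0418, edgeR). Cd209f was not the only member called in an alternative setting. Of 15 settings each, Cd209b passed as lower in 2 (lowest adjusted p = 0.00343, edgeR), Cd209d as lower in 1 (0.0152) and Cd209a as higher in 1 (0.0455).

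**Figure D4:**
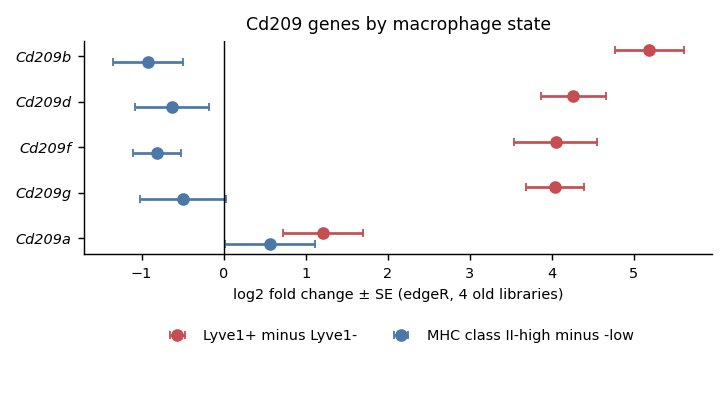
Fitted log2 fold changes of the 5 Cd209 genes that passed the filter, with standard errors derived from the F statistic (edgeR, 4 old libraries, library as a block). Lyve1+ minus Lyve1- is in red and MHC class II-high minus -low in blue. The Lyve1 value of Cd209d is a description. Cd209b, Cd209d, Cd209f and Cd209g lie between 4.04 and 5.19 for Lyve1 and between -0.92 and -0.49 for MHC class II, whereas Cd209a lies at 1.21 and 0.56.

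Cd209a was also described by both states together. In the 28-month library it had 302 CPM in Lyve1+ MHC class II-low cells, 242 in Lyve1+ MHC class II-high cells, 80.0 in Lyve1- MHC class II-high cells and 4.46 in Lyve1- MHC class II-low cells. In the 27-month library the order was 93.0, 99.0, 125 and 3.78 CPM. At 24 months 23 of its 24 macrophage UMIs were in Lyve1- MHC class II-high cells (270 CPM), and in the young male all 7 were (58.1 CPM). At 20 months the values were 34.8, 71.0, 13.9 and 0 CPM, from 8 UMIs in all. In the Lyve1- MHC class II-high cells Cd209b had 0, 11.8, 2.40 and 8.82 CPM and Cd209f had 132, 106, 14.4 and 103 CPM at 20, 24, 27 and 28 months, so Cd209a stood above Cd209f there at 24 and 27 months and below it at 20 and 28 months.

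Single cells often held several members. At least 3 of the 7 genes had a UMI in 46.4%, 13.3%, 65.6% and 67.5% of Lyve1+ macrophages at 20, 24, 27 and 28 months, in 1.64% in the young male, and in 0.595% to 5.45% of old Lyve1- macrophages. Up to 7 members were found in a single cell of the 27- and 28-month libraries. These shares depend on depth. In Lyve1+ cells thinned to 2000 UMIs, 86.4% of the 81 cells with Cd209d also held Cd209f at 27 months, against 51.6% of the cells without Cd209d. At 28 months the values were 92.7% of 150 cells and 59.4%. Cd209a was found with Cd209d in 48% of those 150 cells and in 14.1% of the others at 28 months, and in 19.8% and 9.38% at 27 months. Cells of a library share its free RNA, and these shares are given with no test.

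Cd209a was the member with the highest level outside macrophages in the pooled old libraries. C1q-negative myeloid cells, set apart by monocyte and dendritic cell markers with under 2 UMIs of the macrophage gate, had 147 and 0 CPM of Cd209a in the young male and female and 308, 286, 123 and 40.4 CPM at 20, 24, 27 and 28 months. These came from 10 of 122, 0 of 14, 2 of 16, 24 of 198, 4 of 23 and 9 of 181 cells with a UMI. Old and young means were 189 and 73.3 CPM, with p = 0.4 in a two-sided exact permutation test over libraries. The smallest p that 2 against 4 libraries allow is 0.133, so this comparison could not pass the threshold and decides nothing. The ranges overlapped. Cd209f, Cd209g and Cd209b had from 0 to 4.61 CPM in these cells in every library.

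The other C-type lectins of these macrophages were compared by the same fits. Of 28 genes in that list 15 were tested between Lyve1 states, with 4 higher, 2 lower and 9 not called, and a median log2 difference of 0.51 beside -0.04 for all genes. Clec10a, a lectin for galactose-type sugars, was 2.84 higher (SE 0.31, adjusted p = 4.24e-07, edgeR) and Mrc1, the mannose receptor, 1.48 higher (SE 0.34), the latter being a gene of the macrophage gate. Cd302 was 1.00 higher (SE 0.28) and Clec4b1, a dendritic cell lectin, was 1.25 lower (-1.25, SE 0.29). All of these were smaller than the differences of Cd209b, Cd209d, Cd209f and Cd209g. Between MHC class II states 4 of the 15 were higher in MHC class II-high cells and 0 lower, led by Clec4b1 (3.27, SE 0.34), then Clec7a, the beta-glucan receptor Dectin-1 (1.80, SE 0.28), Clec4a2 (1.59, SE 0.36) and Mgl2 (1.52, SE 0.35).

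Of 18 genes of signalling below C-type lectins 15 were tested, and between Lyve1 states 1 was higher, 2 were lower and 12 were not called (list median -0.18). Il10, an anti-inflammatory cytokine, rose by 1.66 (SE 0.35, adjusted p = 0.00313, edgeR), whereas Lsp1, a cytoskeletal protein, fell by 1.73 (SE 0.32) and Malt1, a protease and scaffold, fell by 1.59 (SE 0.27). In MHC class II-high cells 3 were higher, namely Malt1 (1.79, SE 0.36), Lsp1 (1.17, SE 0.25) and Syk (1.10, SE 0.22), the kinase through which several lectins signal.

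The Lyve1-type resident macrophage list gave 16 of 19 tested genes higher in Lyve1+ cells and 0 lower, with a median of 2.31, and it holds genes named for this state. Fcna, a secreted ficolin, was 4.13 higher (SE 0.50), the chemokine Ccl8 3.68 higher (SE 0.44), the folate receptor Folr2 3.33 higher (SE 0.33) and the haemoglobin scavenger Cd163 3.1 higher (SE 0.35). Of 16 MHC class II and antigen presentation genes 13 were lower in Lyve1+ cells and 0 higher (median -1.37), and the largest falls were not in antigen presentation genes proper. They were in the inflammatory cytokine Il1b (-4.23, SE 0.35), the chemokine receptors Ccr2 (-2.31, SE 0.36) and Cx3cr1 (-2.16, SE 0.38) and the surface glycoprotein Cd52 (-2.20, SE 0.38). The MHC class II chains themselves, named here outside the rule, fell by less, with -1.10 for H2-Aa (SE 0.29), -1.36 for H2-Ab1 (SE 0.29) and -1.36 for H2-Eb1 (SE 0.29). Of 18 IL-4 and IL-13 response genes 12 were tested, with 3 higher and 3 lower (median -0.10). Ear2 fell by 3.34 (SE 0.35) and the matrix gene Fn1 by 3.14 (SE 0.37), and the chemokine Ccl24 rose by 2.16 (SE 0.30). Between MHC class II states the Lyve1-type list had 3 of 19 lower (Timd4 -1.43, SE 0.29, Fcna -1.31, SE 0.22 and Cbr2 -0.99, SE 0.23) and the MHC class II list, which holds the genes that define the split, had 10 of 16 higher. The IL-4 and IL-13 list had 2 higher and 1 lower (Tgm2 -1.33, SE 0.31).

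Between old and young macrophages none of the 5 lists had a gene that passed with edgeR. The median log2 differences were 0.88 for the Lyve1-type genes (13 of 19 above 0), 0.46 for the MHC class II genes, 0.46 for the IL-4 and IL-13 genes, 0.12 for the other C-type lectins and -0.01 for signalling, beside 0.10 for all genes. The most abundant other lectins were Mrc1 (1.41, SE 0.67) and Mgl2 (1.67, SE 0.60).

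Among all genes the largest rises in Lyve1+ cells in the same direction in every library were Lyve1 (13.13, SE 0.66), Cd209b, Cd209d, Fcna and Cd209f. Lyve1 has a count of 0 in Lyve1- cells by definition, so the size of its value is not read. Cd209d is listed as a description, and Cd209g was number 7 of 421 genes called higher. The largest falls were Bpifa1 (-6.21, SE 0.49), Itgax (-5.37, SE 0.49), 5430437J10Rik (-4.98, SE 0.45), Ltb4r1 (-4.59, SE 0.46) and Scgb1a1 (-4.47, SE 0.74). Itgax encodes the integrin CD11c and Ltb4r1 a leukotriene receptor, whereas Bpifa1 and Scgb1a1 are secretory products of airway epithelium. In MHC class II-high cells Ear2 (7.45, SE 0.44), H2-Eb1 (6.12, SE 0.41), the chemokine receptor Ccr2 (5.96, SE 0.54), H2-Aa and H2-Ab1 rose most, and Scgb1a1 (-3.96, SE 0.69), Ptprd (-3.25, SE 0.33), Lama4 (-3.17, SE 0.31), the complement receptor Vsig4 (-2.90, SE 0.31) and Akap12 (-2.89, SE 0.43) fell most. H2-Eb1, H2-Aa and H2-Ab1 define that split.

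Genes with the profile most like each member were ranked by Pearson r of log2(CPM + 10) over 16 library-by-state profiles, among 6404 genes. These profiles share libraries and depth, and the values are a description. Nearest to Cd209d were Slco2b1, an organic anion transporter (r = 0.93), Pdgfc, a growth factor (0.92), the complement gene C6 (0.92), Psd3 and Fam118a. Nearest to Cd209g were Stab1, the scavenger receptor stabilin-1 (0.98), Folr2 (0.94), Cd163 (0.93), Fcgrt, the neonatal Fc receptor (0.93), and Smagp. Nearest to Cd209f were Slc16a6 (0.92), Npl (0.91), Cd209b (0.90), Cacna1a and Trpv4, and Cd209b had Frmd4b (0.91), Cd209f, Gprc5c, Alox5 and Itsn1. Cd209a was nearest to Adap2 (0.90), Eps8, Map3k14, Fcrls and Lpcat1, and its r with Cd209f was 0.44. Cd209f and Cd209g, with the shared promoter run, had r = 0.87, and Cd209d had 0.77 with each of them. Cd209c and Cd209e, with 162 and 83 UMIs in macrophages, were nearest to Ggt5 (0.90), Ctsh, Il4ra, Parp14 and Gm30489, and to Gm15655 (0.95), Snx6, Tbc1d9b, Man1c1 and Ms4a4a.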

How the data were processed

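Proximal PA and its surrounding tissue were digested with collagenase and elastase and sequenced with 10x Genomics 3′ chemistry. Per the submitters' processing notes the authors used cutadapt and STARsolo (STAR) with the GRCm38.p6 build, and they deposited unfiltered UMI counts per gene and barcode, not normalized. Tool versions are not given in the sources used here. The gene identifiers matched a GENCODE annotation with version for 35 of 53647 genes and without version for 52093. The files hold no coordinates, so positions and promoter windows came from RefSeq.

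Barcodes with at least 500 UMIs, 300 genes and at most 20% mitochondrial UMIs were kept. Macrophages had at least 2 UMIs of the 4 gate genes, and other cells took the type with the highest sum of its markers (at least 2 UMIs, no tie). No doublet caller was run. Counts were summed per library and class (at least 10 cells) and tested with edgeR 4.0.16 (quasi-likelihood, TMM, library as a block for classes of the same libraries, R 4.3.3), with genes kept where over 5% of cells had a UMI in at least 3 libraries and Benjamini-Hochberg adjustment over all genes tested. Each SE beside an edgeR value was derived as the absolute log2 fold change over the square root of the quasi-likelihood F statistic. DESeq2 1.42.0 was an alternative. Single values used exact permutation tests (scipy 1.17.1), and counts carry exact 95% Poisson intervals. Totals per library ran from 6355125 to 50436562 UMIs. One library was taken as 1 mouse from the mice that the study lists, since the labels do not state it. Age was compared over 2 young and 4 old libraries. A young male library described by the study was not analysed here.

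The members and all lists were chosen with earlier results of these data known. Named genes were the members, the 5 called genes with the largest rise and the 5 with the largest fall in each state fit that moved the same way in every library, up to 4 called genes of largest change in each list (where none was called, the 2 most abundant), and the 5 genes most like each member with at least 50 UMIs. On simulated data with 200 changed genes, 100% of genes changed 4-fold were recovered in the Lyve1 fit of 6205 genes, with 11 false calls. In the MHC class II fit 99% were recovered, with 20 false calls. In the fit of old against young macrophages (6465 genes) 0.5% were recovered, with 0 false calls. There 96.5% of genes changed 16-fold were recovered, with 7 false calls.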

Additional observations from a re-analysis of the deposited data

How the results depend on the processing

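Old and young libraries came from different mice and were not paired, and the library block used here joins cell classes of the same library. Cd209b, Cd209f and Cd209g passed as higher in Lyve1+ macrophages. Cd209d carries no test there and is not counted, and 421 of 6205 genes were higher. Without the gene filter Cd209a, Cd209c and Cd209e passed as well, where 655 of 15144 genes were higher. With cells thinned to 500 UMIs 2 members (Cd209f and Cd209g) could be tested and passed, where 119 of 1314 genes were higher. Without the 28-month library Cd209c and Cd209e were not called. With 1 old library left out the count ran from 4 to 7, and leaving out the 20-, 27- or 28-month library gave no member past the gene filter, so those fits were made without it, as alternatives added after the data were seen. No call of Cd209b, Cd209f or Cd209g was lost in a setting that tested it. The log2 difference of Cd209d, as a description, ran from 3.50 to 4.67. The Lyve1 fit called 941 genes, 520 with DESeq2 and 61 without the library block, and the MHC class II fit called 349, 190 and 13. Between MHC class II states 0 members were called, beside 349 of 6205 genes. With at least 1000 UMIs and 500 genes 1 was called (Cd209f), beside 398 of 6513 genes. With a library left out the count ran from 0 to 3, where from 283 to 1805 genes were called. It was 1 without the 24-month library (330 of 5897 genes called) and 3 without that library and the gene filter (1805 of 14898). The sign turned for Cd209a with a macrophage gate of at least 4 UMIs (-0.16), for Cd209g without the 20-month library and the gene filter (0.089), and for Cd209d without the gene filter and the 28-month (0.044) or the 27-month library (0.021), none of them called, and the cause was not tested. Between macrophages and other cells 0 members passed the filter. Cd209d not counted, 4 were called with edgeR's own filter (1490 of 16303 genes higher) and 4 without a filter (1417 of 24562 genes higher). With a library left out as well it was from 4 to 5, where from 905 to 1475 genes were higher. Between old and young macrophages 0 genes were called with edgeR and 9 with DESeq2. The difference of Cd209d means between old and young macrophages was 197 CPM and ran from 151 to 280 CPM, and that of Cd209a in C1q-negative myeloid cells was 116 CPM and ran from 42.9 to 189 CPM (exact permutation p from 0.267 to 0.6). The 24-month library held 15 Lyve1+ macrophages and the young female 3, which limits both.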
